A study of Mus musculus with 2 samples.

Results

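Matrix metalloproteinases (MMPs), the ADAM and ADAMTS proteases, the ADAMTS-like proteins and the tissue inhibitors of metalloproteinases (TIMPs) were followed in skeletal muscle of a tumour-bearing and a control mouse group. The genes were taken by symbol (Mmp, Timp and Adam followed by a digit, and names that start with Adamts). The choice was made with earlier results of these data known, and a matching gene was left out. The 82 genes described here, of 34740 gene names on the arrays, were covered by 122 probes of 60 bases. They comprised 22 MMPs, 4 TIMPs, 32 ADAMs, 19 ADAMTS proteases and 5 ADAMTS-like proteins.

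Both groups were male CD2F1/Slc mice aged 11 weeks, and total RNA of skeletal muscle was labelled with Cy3 and hybridised to 1 one-colour Agilent array per group. The C26 group had received 1000000 colon 26 carcinoma cells in 100 µL of PBS under the skin of the flank, a transplant model of cancer cachexia, and the control group the same volume of PBS alone. The muscle taken, the time after implantation and whether RNA of several mice was pooled are not stated in the labels. With 1 array per group there was no estimate of the spread between animals, so no test was run, no p-value is given, and every difference describes this pair of arrays. Each printed error comes from the scanning software's estimate for the spots and leaves out all differences between animals.

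MMPs and ADAMTS proteases are zinc enzymes, mostly secreted, that cut collagens, proteoglycans and other matrix proteins, and the membrane-type MMPs do so at the cell surface. ADAMs are membrane proteins, and those with an active protease domain release the outer parts of other membrane proteins, such as growth factors, cytokines and Notch. TIMPs bind the active site of these enzymes and block it. In skeletal muscle much of this system is made by connective tissue, vessel and immune cells around the fibres, and it takes part in the turnover of the endomysium and in regeneration.

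A gene was counted as measured where both arrays read its brightest probe well above background, which held for 19668 gene names and for 40 of the 82 protease and inhibitor genes. Another 4 were above background on the C26 array alone, 1 on the control array alone, and 37 on neither. Of the spots, 50.4% (control) and 53.8% (C26) were well above background, and the number of arrays limits the precision of everything that follows. All 13 skeletal muscle markers (among them Ckm and Acta1) were measured, with a median log2 ratio of 0.04, no marker at 2-fold either way, and a summed signal of 2.62e+06 on the control and 2.56e+06 on the C26 array. None of them was missing on either array.

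Probes of some genes named below, picked by hand and not by rank of value, are shown by the first 30 of their 60 bases. The bases run 5′ to 3′, as printed on the array, and the position is that of the whole probe on mm9. These probes are given because each value rests on the transcript stretch that its probe reads. The sequence table used here holds no exon or UTR annotation for these positions.
Timp1 (chrX:20451802-20451861, plus strand): tacttttcctccatctttctttctcttaga
Timp4 (chr6:115196120-115196179, minus strand): ccagcaaatggaggctgtggggcatgtgac
Mmp2 (chr8:95376840-95376899, plus strand): gttcttcaacatctatgacctttttatggc
Adam8 (chr7:147164873-147164932, minus strand): ccgtcatctccggattgaaacagattagtt
Adamts4 (chr1:173189952-173190011, plus strand): cgcatctttgagcattagttttctcatgtg
Adamtsl4 (chr3:95480135-95480194, minus strand): ccacttcacactgaaaatgatgcccacccc
Mmp1b (chr9:7367842-7367901, minus strand): agtaaatgtggctctgaatgaaggaaccca
Mmp1a (chr9:7476795-7476854, plus strand): cagctaagagacacttcctgtccgaaagta

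Most of the measured genes of the group read lower on the C26 array. The median log2 ratio (C26 minus control, after each array was scaled to its 75th percentile) was -0.18 over the 40 measured genes, against 0.04 over all 19668, and single genes ran from -1.91 to 0.89. Ratios below 0 were found for 27 of the 40 (67.5%), and for 43.5% of all measured genes. No gene of the group was at least 2-fold higher, where 1.25% of all measured genes were, and 2 were at least 2-fold lower, Timp1 and Adam8, where 1.15% of all were. At 1.5-fold, 3 genes were higher (7.5% of the 40, against 4.37% of all) and 10 were lower (25% of the 40, against 4.83% of all). With another background correction (normexp) the 10 became 5, against 2.07% of all measured genes. The 40 had to be above background on both arrays, so these shares say nothing of the other 42.

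**Figure D1:**
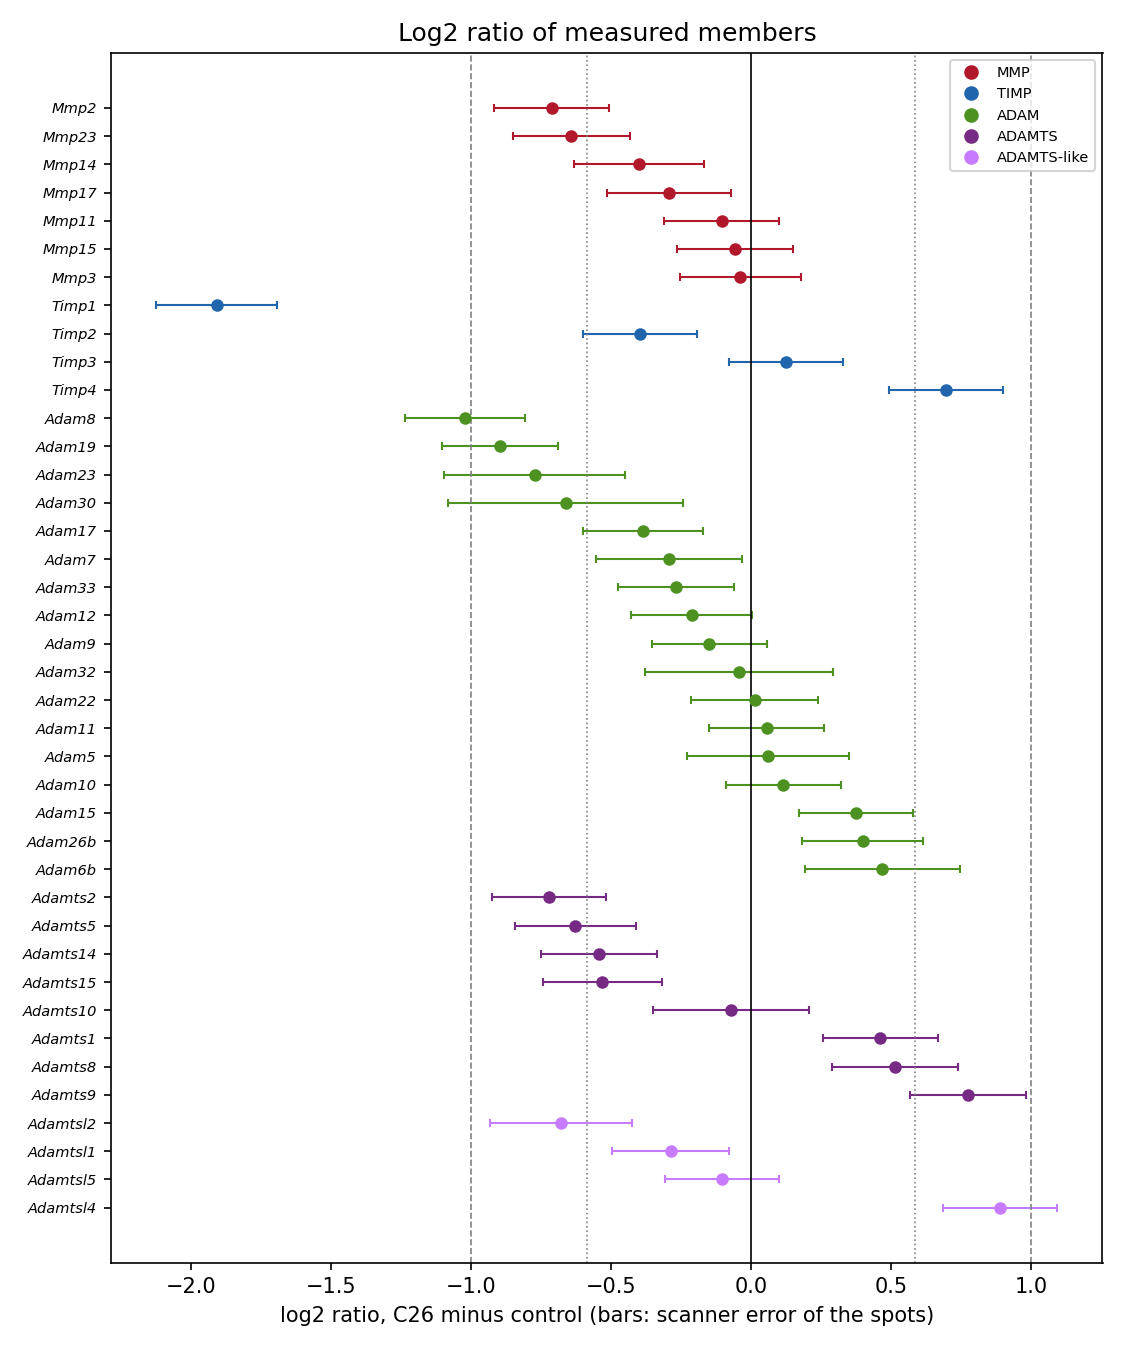
Log2 ratio (C26 minus control, x axis) of each of the 40 measured genes, ordered by family, with bars for the scanner software's error, dashed lines at 2-fold and dotted lines at 1.5-fold. Most points lie left of 0, Timp1 lies farthest left at -1.91 and Adamtsl4 farthest right at 0.89.

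The TIMPs did not move together. Timp1, a secreted inhibitor that blocks most MMPs, had a processed signal of 315 on the control and 79.8 on the C26 array. The log2 ratio was -1.91 ± 0.21 (scanner error), a 3.75-fold lower value, and 21st from the lowest of the 19668 measured genes. Under normexp, the other background correction, it was -1.29. Timp4, an inhibitor known for its expression in heart and striated muscle, went the other way, with 2606 on the control and 4012 on the C26 array. Its log2 ratio was 0.70 ± 0.20, 1.62-fold higher. Timp2, which blocks MMPs and also helps membrane-type MMPs to activate pro-Mmp2, read 25255 and 18237 (log2 ratio -0.40 ± 0.20), and its second probe gave -0.47. Timp3, which stays bound to the matrix and also blocks Adam17 and several ADAMTS enzymes, read 11650 and 12072, a log2 ratio of 0.12 ± 0.20 that was smaller than its error. The split of 2 TIMPs below and 2 above 0 was the same in each of the 9 settings that kept the background filter. Some of these settings leave the ratios unchanged or shift all genes alike.

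**Figure D2:**
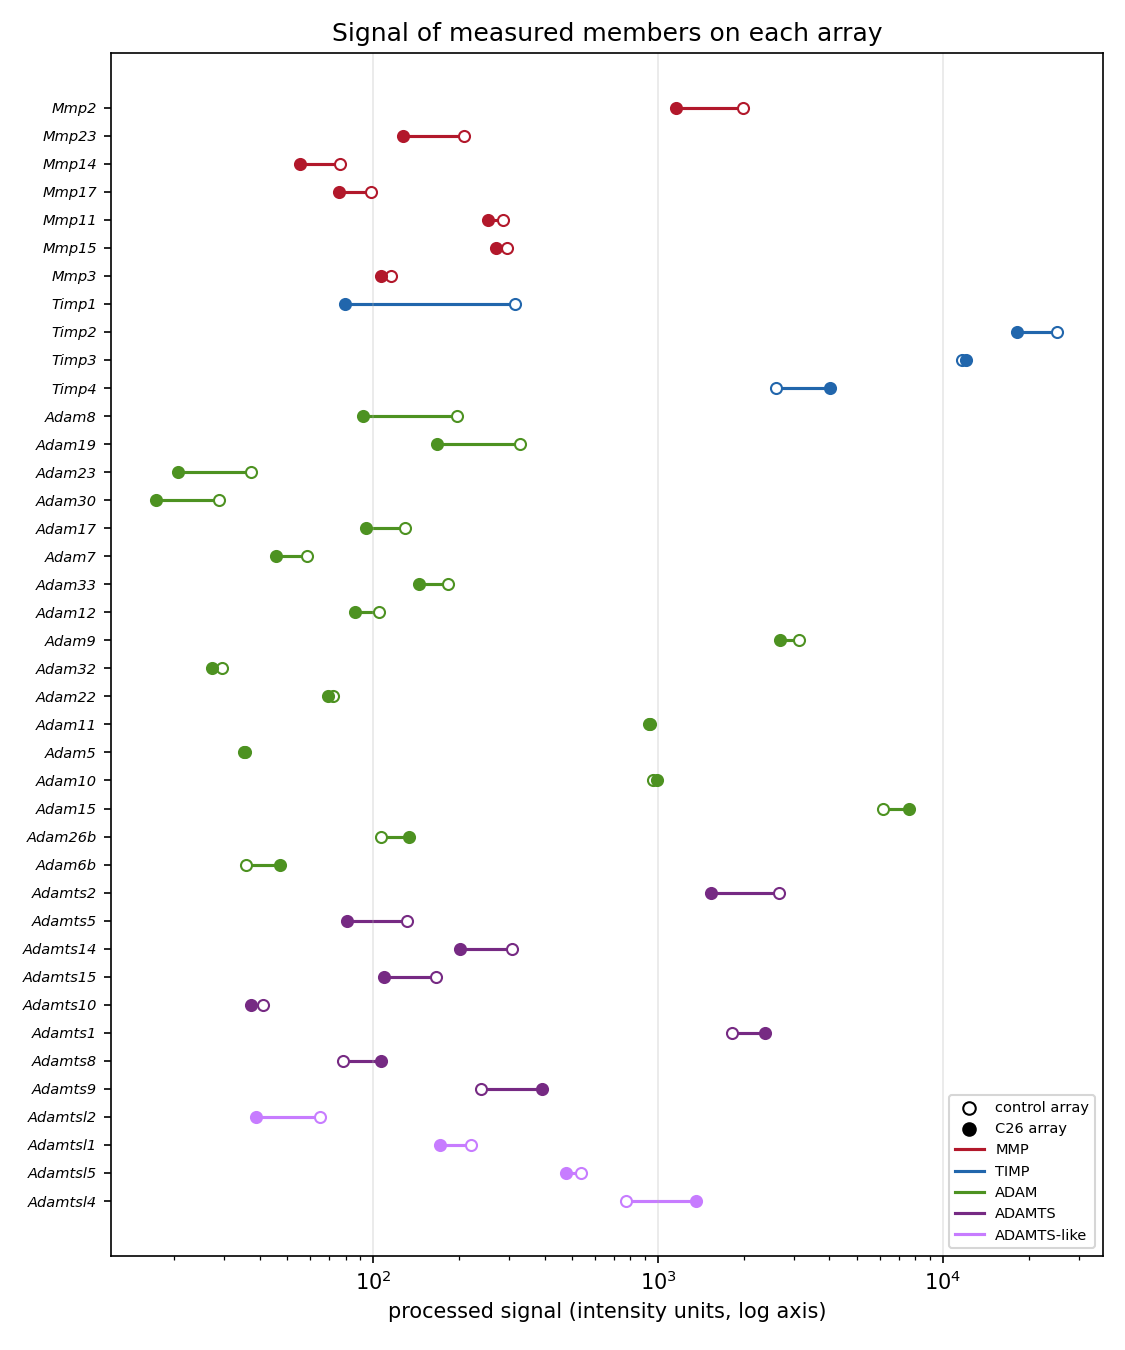
Processed signal on a log axis for the measured genes on the control array (open points) and the C26 array (filled points), before scaling between arrays. The pair of points lies farthest apart for Timp1, at 315 and 79.8, and nearly coincides for Timp3, at 11650 and 12072.

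Of the 22 MMPs described here 7 were measured, and all 7 read lower on the C26 array, with a median log2 ratio of -0.29 and a range of -0.71 to -0.04, where 43.5% of all measured genes lay below 0. Mmp2, gelatinase A, which cuts denatured and type IV collagen, read 1988 on the control and 1154 on the C26 array. That was a log2 ratio of -0.71 ± 0.20, or 1.64-fold lower. Mmp23, a membrane-anchored MMP without the usual haemopexin domain, read 209 and 127, with a log2 ratio of -0.64 ± 0.21. These were the 2 MMPs past 1.5-fold. All 7 stayed below 0 in each of the 9 settings with the background filter, although Mmp11, Mmp15 and Mmp3 lay within their scanner error of 0.

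Among the membrane-type enzymes, Mmp14, a collagenase of the cell surface and activator of pro-Mmp2, read 76.7 and 55.3 (log2 ratio -0.40 ± 0.23). Mmp17, which is held in the membrane by a lipid anchor, read 98.1 and 76.1 (-0.29 ± 0.22). Mmp15 read 294 and 269 (-0.06 ± 0.21). Both stromelysins that were measured were close to equal on the arrays, with Mmp11, which furin activates inside the cell, at 287 and 253 (-0.11 ± 0.21, second probe -0.01) and Mmp3 at 115.3 and 106.9 (-0.04 ± 0.22). Mmp24, another membrane-type MMP, was above background on the C26 array alone, with a signal of 19.1 on each array. Its bound of 1.05-fold divides by its own control reading and comes from the scaling between the arrays, so it is no lower limit.

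None of the 4 collagenases was measured on both arrays, and 13 of the 22 MMPs were above background on neither. Mmp1b, a mouse interstitial collagenase gene, read 54.8 on the control and 3.49 on the C26 array, where it was not well above background. The bound was at least 3.69-fold lower, from 1 spot per array. The probe of its close relative Mmp1a was not well above background on either array, at 5.01 and 3.59. Among all genes above background on the control array alone, 45.2% had a bound of at least 2-fold, so a bound of this size was common in that class. Under normexp the bound of Mmp1b was 1.62-fold.

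The gelatinase Mmp9, typical of neutrophils and activated macrophages, was printed in 10 copies on each array. On the control array 2 copies carried an outlier flag and were left out, at 6.30 and 22.7, and the latter was the only copy well above background. The 8 copies used there read 12.5 at the lowest, 16.4 at the median and 20.4 at the highest. The C26 copies read 2.90, 3.70 and 6.58 in the same order, and none of the 10 was well above background. The copies used did not overlap between the arrays, while the left-out copy of 6.30 lay below the highest C26 copy. Copies are repeat spots of 1 sample and no fold is given where both arrays are below background. Adamts19, also printed in 10 copies, of which 3 on the C26 array were left out as outliers, read 3.75 to 5.15 on the control and 2.82 to 3.74 on the C26 array, with no copy above background. Its copies did not overlap between the arrays either, so the lack of overlap was not particular to Mmp9. The share of other probes printed in many copies that do not overlap is not given here, and no difference in Mmp9 is read from it. The other MMPs above background on neither array were Mmp1a, Mmp7, Mmp8, Mmp10, Mmp13, Mmp16, Mmp19, Mmp20, Mmp21, Mmp25, Mmp27 and Mmp28.

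**Figure D3:**
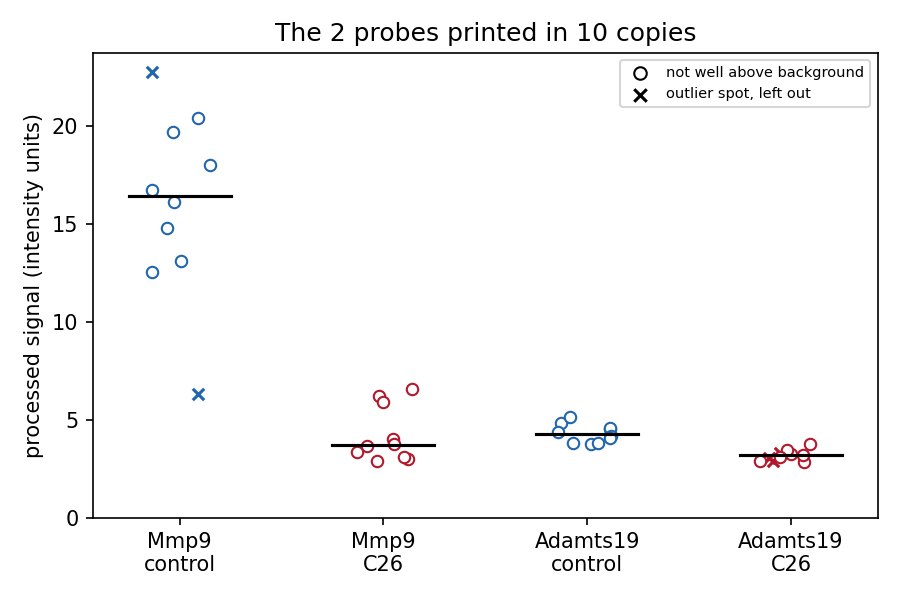
Processed signal of the 10 printed copies of the Mmp9 probe and of the Adamts19 probe on each array, on a linear axis, with crosses for outlier spots that were left out and lines at the medians of the others. The control copies of Mmp9 that were used reach from 12.5 to 20.4 and the C26 copies from 2.90 to 6.58, and no copy used was well above background.

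A run of 9 of these MMP genes lies together on chromosome 9 (chr9:7282762-7697700 on mm9 by their probes, 414939 bases), and little of it was above background in this muscle. Mmp3 was the only gene of the 9 measured on both arrays, Mmp1b was above background on the control array, and the other 7 on neither. Several of these genes are known targets of AP-1, a dimer of Fos and Jun family proteins. The promoter table of RefSeq (GRCm38.p6) was searched for TGANTCA, which covers the usual AP-1 site and reads the same on both strands, in the 250 bases before each start. It was found for 7 of these 9 genes, against 7.82% of the 27025 genes in the table, and for 10 of the 51 protease and inhibitor genes that have an entry. A match of letters is a description and shows no binding. The 7 stretches are shown with the motif in capitals, on the strand of the gene and with GRCm38.p6 positions.
Mmp13 (chr9:7272468-7272496, plus strand): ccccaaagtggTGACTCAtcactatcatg
Mmp1b (chr9:7388102-7388130, minus strand): gttacaaagccTGAGTCAtatagcctctg
Mmp3 (chr9:7445765-7445793, plus strand): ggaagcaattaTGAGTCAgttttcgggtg
Mmp1a (chr9:7464057-7464085, plus strand): gttgtcaaccaTGAGTCAcatagcctctg
Mmp10 (chr9:7502268-7502296, plus strand): tagcacccatgTGAGTCAtgcttagtgac
Mmp20 (chr9:7628125-7628153, plus strand): catttgagacaTGAATCAtcacttacagg
Mmp7 (chr9:7692016-7692044, plus strand): aagtgtgcaaaTGAGTCAcctatttccac

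Among the 25 measured genes of the group with a promoter entry, 2 held the motif, Mmp3 and Adam19. In Adam19 it stands 131 bases before the start.
Adam19 (chr11:46055842-46055870, plus strand): tgtccttcaccTGAGTCAgcgatgctccc
Their log2 ratios were -0.04 ± 0.22 for Mmp3 and -0.90 ± 0.21 for Adam19.

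Of the 32 ADAMs, 17 were measured, 10 of them below 0, with a median log2 ratio of -0.15. The largest difference was that of Adam8, a protease of leukocytes, which read 197 on the control and 92.1 on the C26 array. Its log2 ratio was -1.02 ± 0.21, or 2.03-fold lower. Under normexp, which also adds an offset of 50 to every signal, it was -0.66 and no longer past 2-fold. Adam19, a protease that cuts neuregulins and is also called meltrin beta, read 327 and 167, with a log2 ratio of -0.90 ± 0.21 and 1.86-fold lower. Adam23, which lacks an active protease site and acts in adhesion in the brain, read 37.2 and 20.7 (-0.77 ± 0.32). Adam30, a gene of the testis, read 28.8 and 17.3 (-0.66 ± 0.42). Both are dim, and under normexp they stood at -0.24 and -0.17.

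The ADAMs with active protease domains outside the germline had a median log2 ratio of -0.24, with 6 of the 8 measured below 0. Adam10, the main protease that cleaves Notch, read 961 and 991, a log2 ratio of 0.12 ± 0.20. Adam9 read 3122 and 2679 (-0.15 ± 0.20) and Adam15 read 6153 and 7595 (0.38 ± 0.20). Adam17, which releases tumour necrosis factor from the membrane, had a ratio of -0.39 ± 0.21, and its second probe gave -0.32. Adam12, a protein of myoblast fusion also called meltrin alpha, had -0.21 ± 0.22, and Adam33 had -0.27 ± 0.21. Apart from Adam8 and Adam19, the measured proteases of this kind thus lay between -0.39 and 0.38.

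The brain-type ADAMs without protease activity (Adam11, Adam22 and Adam23) had a median of 0.01. Adam11 was the only 1 of 10 genes with several measured probes whose probes differed in sign, with 0.06 and -0.19. Of the 20 germline and other ADAMs, 6 were measured, with a median of 0.01 and a range from Adam30 to Adam6b (0.47 ± 0.28). Adam1a was above background on the C26 array alone, at 16.9 and 16.3, and no fold is given. Not above background on either array were Adam1b, Adam2, Adam3, Adam4, Adam6a, Adam18, Adam21, Adam24, Adam25, Adam26a, Adam28, Adam29, Adam34 and Adam39. Many of these act in sperm, and their symbols include near-identical copies whose probes could share transcripts.

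Of the 8 measured ADAMTS proteases, 5 were below 0, with a median log2 ratio of -0.30. The 2 measured procollagen N-proteinases, which trim the amino end of fibrillar procollagens, both read lower. Adamts2 read 2655 and 1530, a log2 ratio of -0.72 ± 0.20, and its second, dim probe gave -0.60. Adamts14 read 308 and 201 (-0.54 ± 0.21). Among the aggrecanase-type enzymes, which cut aggrecan and versican, 3 of 5 read higher, with a median of 0.46. The share below 0 was 40%, near the 43.5% of all measured genes, so this count does not set them apart. Adamts9 read 240 and 390 (0.77 ± 0.21, 1.71-fold higher), Adamts8 read 78.2 and 106 (0.51 ± 0.22, second probe 0.45) and Adamts1 read 1819 and 2382 (0.46 ± 0.20). Adamts5 and Adamts15 read lower, at 131 and 80.7 (-0.63 ± 0.22, second probe -0.41) and at 166 and 109 (-0.53 ± 0.21). Adamts9 rests on 1 probe of 2, since its dim second probe, at 25.9 and 24.8, gave 0.01 ± 0.38 and the mean of both was 0.39.

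Adamts4, an aggrecanase that inflammatory cytokines are known to induce, was above background on the C26 array alone. It read 14.3 on the control and 69.1 on the C26 array. It was at least 3.93-fold higher, and its other probe, at 4.23 and 17.5, was also above background on the C26 array alone. Of all genes above background on the C26 array alone, 6.99% had a bound of at least 2-fold. With the processed signal scaled in other ways the bound was 3.77 to 3.84, and under normexp it was 1.72. Adamts10, which acts on fibrillin microfibrils, read 41.2 and 37.3 (-0.07 ± 0.28). Adamts3, Adamts6, Adamts7, Adamts12, Adamts13, Adamts16, Adamts17, Adamts18, Adamts19 and Adamts20 were above background on neither array.

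Neighbouring ADAMTS genes read in opposite directions. Adamts1 and Adamts5 lie next to each other on chromosome 16, with no other protein-coding gene starting between them in the reference gene table, and their log2 ratios of 0.46 and -0.63 differed by 1.09 ± 0.30. Adamts8 and Adamts15 are neighbours on chromosome 9 in the same sense, and their ratios of 0.51 and -0.53 differed by 1.05 ± 0.31 (scanner error). Over the 9 settings with the background filter the differences were 0.84 to 1.09 and 0.63 to 1.05, and each gene kept its sign. On chromosome 8, by contrast, the adjacent Adam5, Adam32 and Adam9 stood at 0.06, -0.04 and -0.15, all within their errors of 0.

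ADAMTS-like proteins have no protease domain, and several bind fibrillin microfibrils. Adamtsl4 read 770 on the control and 1357 on the C26 array, a log2 ratio of 0.89 ± 0.20 and 1.85-fold higher, the highest ratio among the 40 measured genes. Adamtsl2, which also binds latent TGF-beta binding protein, read 65.1 and 38.7 (-0.68 ± 0.25), and under normexp -0.29. Adamtsl1 (-0.29 ± 0.21) and Adamtsl5 (-0.10 ± 0.20) lay nearer 0. Adamtsl3 was above background on the C26 array alone, at 11.0 and 22.7, with a bound of at least 1.29-fold higher.

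**Figure D4:**
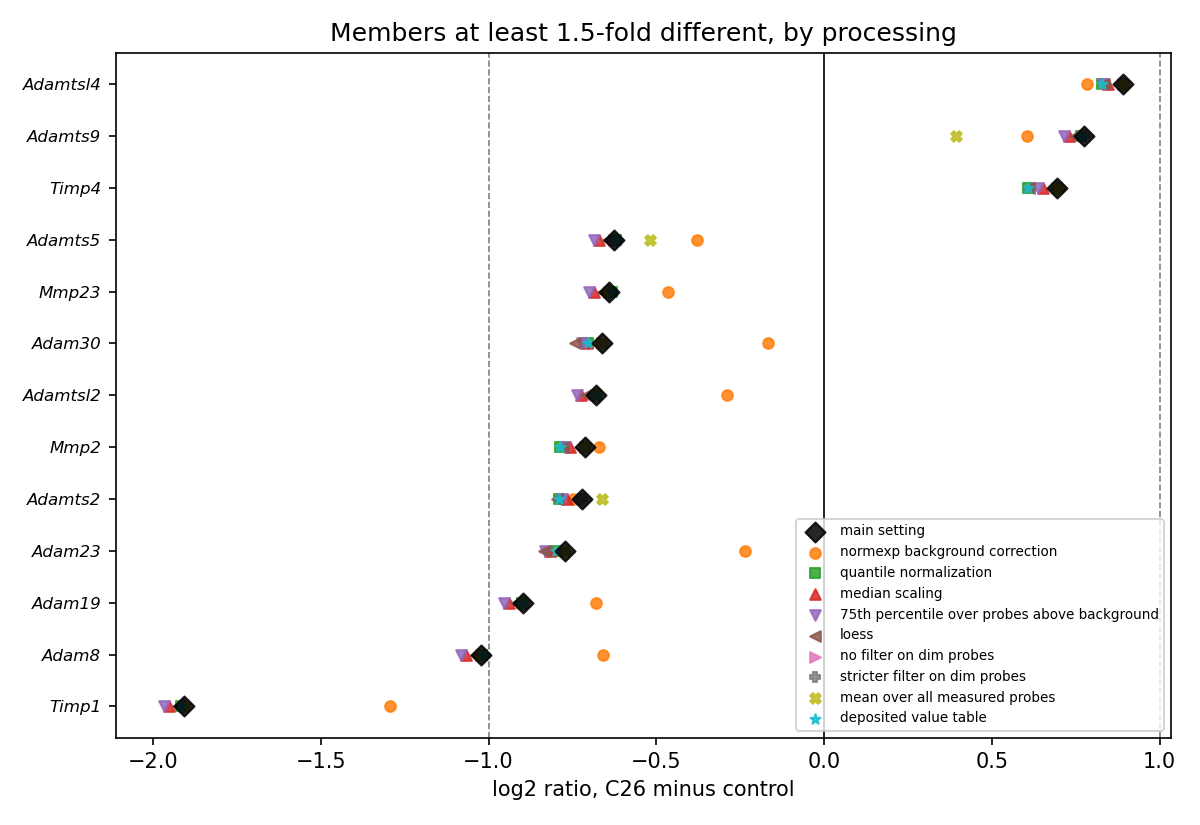
Log2 ratio (C26 minus control) of the genes at least 1.5-fold different, under each way of processing the arrays, with dashed lines at 2-fold. Timp1 stays the lowest of them, between -1.97 and -1.29, and no gene drawn crosses 0.

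The wider system was described from 4 lists of genes that act on or are cut by these proteases. Of 33 regulators, 29 were measured, with a median log2 ratio of -0.09, 2 at least 2-fold higher and 1 lower. Pzp, a broad protease inhibitor of the alpha-2-macroglobulin family, read 32.9 and 133 (2.08 ± 0.26), and Plg, the zymogen of plasmin, read 19.3 and 37.6 (1.03 ± 0.36). Cd44, a hyaluronan receptor on which MMPs dock and which they cut, read 99.1 and 46.1 (-1.03 ± 0.23), followed by Thbs2, a matrix protein through which MMP2 is cleared, at -0.68. Of 19 other matrix proteases and processing enzymes, 16 were measured, with a median of -0.34, none 2-fold higher and 2 lower, the cathepsins Ctsk (-2.13) and Ctss (-1.29). The highest values in this list were those of Ece1 (0.62) and Mme (0.12).

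The substrates differed by kind. Of 29 matrix proteins 25 were measured, with a median log2 ratio of -0.66, 21 below 0 and 9 at least 2-fold lower. The lowest were the fibrillar collagens Col3a1 (-2.00) and Col1a1 (-1.81) and the highest were Vwf (0.86) and Eln (0.31). Of 25 membrane proteins that ADAMs shed, 17 were measured, with a median of 0.04, 2 at least 2-fold higher and none lower. The interleukin-6 receptor Il6ra (1.56) and the Notch ligand Dll1 (1.04) were the highest, and Megf10 (-0.79) and Notch1 (-0.69) the lowest. The background for these counts is the same 1.25% higher and 1.15% lower of all measured genes.

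**Figure D5:**
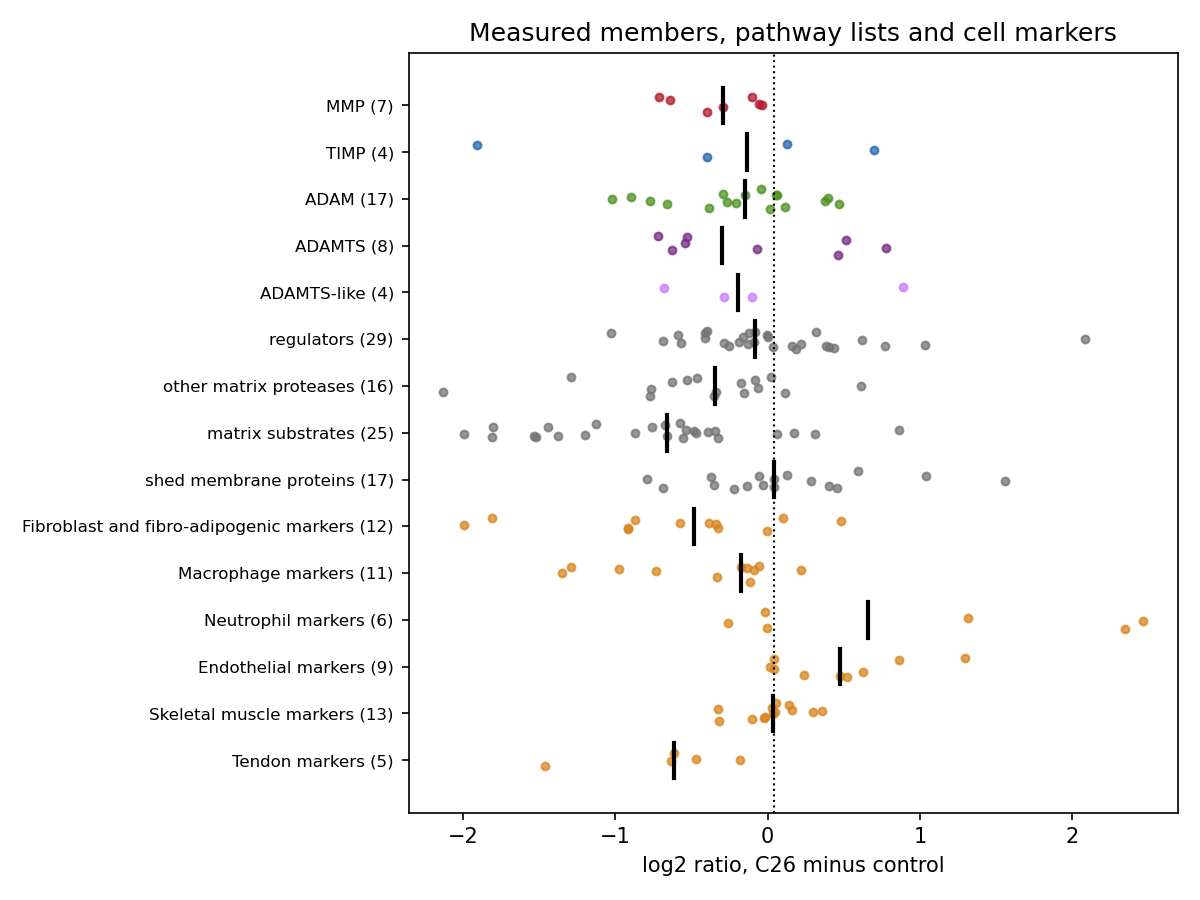
Log2 ratios of the measured genes of the protease families, of the 4 lists of regulators and substrates and of 6 cell type marker lists, with a bar at each list's median and a dotted line at the median of all measured genes, 0.04. Matrix substrates have a median of -0.66, shed membrane proteins one of 0.04 and the 7 MMPs one of -0.29.

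Markers of the cells that make these proteases also differed between the arrays. Of 12 fibroblast markers, all measured, 10 were below 0, with a median of -0.48 and a summed signal of 309103 on the control and 242129 on the C26 array, and 4 of them are in the matrix list as well. Most of that sum was the signal of Medag, at 142136 and 134678 (log2 ratio -0.01), and Dcn, at 107643 and 81772. Sums are of processed signals before scaling between arrays. All 5 tendon markers were below 0 (median -0.62, sum 18166 and 12146). Of 13 macrophage markers 11 were measured, 10 of them below 0 (median -0.17, sum 8778 and 6316), where 43.5% of all measured genes were. The lowest were Cd68, Ms4a7, Lyz2 and Adgre1, from -1.35 to -0.73, followed by Csf1r (-0.34). Cd14, Mrc1, C1qa, C1qb and C1qc lay within their scanner errors of 0, and Mertk read higher (0.22). Fcgr1 was above background on neither array. Cd163 was not measured either, and its brightest probe read higher on the C26 array, at 9.17 and 15.8. Of 10 neutrophil markers 6 were measured, with a median of 0.66. S100a8, S100a9 and Lcn2 were at least 2-fold higher, as were 1.25% of all measured genes, whereas Elane and Camp stood within their scanner errors of 0 and Csf3r at -0.26. The summed signal of 34500 and 28930 was mostly that of Csf3r, at 33121 and 26235, and Ngp, Ltf and Mpo were above background on neither array. Retnlg was not measured either, and its brightest probe read higher on the C26 array, at 9.30 and 49.1. All 9 endothelial markers were above 0 (median 0.48, sum 23130 and 29656), where 43.5% of all measured genes lay below it. Of these markers Kdr (0.01), Emcn (0.04) and Cdh5 (0.04) lay within their scanner errors of 0. They stood near the median of all measured genes, 0.04. The medians of the remaining lists were 0.01 (6 smooth muscle markers), 0.31 (5 adipocyte markers) and 2.31 (3 of 5 erythroid markers measured). For satellite cell markers, with 3 of 4 measured, the median was 1.099, the value of Myog, and Myod1 stood at 1.42. Pax7 went the other way, at -0.20 ± 0.25, within its scanner error of 0. Myf5 was above background on neither array, so the satellite cell markers did not move together. In bulk muscle, fewer cells of a type and less RNA per cell cannot be told apart, and the part of these cells in the values of Timp1, Mmp2, Adam8, Adamts2 and the others was not tested.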

How the data were processed

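Spot intensities of 2 one-colour arrays were used as deposited. Per the file headers, Agilent Feature Extraction 10.7.1.1 subtracted background, detrended each array and put a surrogate in place of signals too low to measure (31.9% of control and 25.6% of C26 spots). The submitters' processing notes list version 9.5.1.1. Per the labels, RNA was total RNA labelled with Cy3. Both arrays shared 1 slide and scan time.

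Outlier-flagged spots (110 on the control and 91 on the C26 array) were left out, each probe's remaining spots were averaged as log2 values, and each array was centred on its 75th percentile over 55680 non-control probes. Each gene took its brightest probe. For a gene above background on 1 array, an "at least" fold divided the brighter value by the dimmer reading, or by the dim array's lowest well-above-background value where that was higher. Names came from GRCm38.p6 for 31380 probes and from the files for 24300, and probe positions are mm9.

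The deposited table of 1 intensity per probe (column medians 19.7 and 19.8, linear and not centred; 99.8% of each column within 0.01 log2 of the quantile-normalized mean processed signal) served as an alternative. How the authors made it is not stated here. The other alternatives were normexp with an offset of 50, 4 scalings, 2 filters, the mean over probes and other fold thresholds. They were run with Python 3.11.15, numpy 2.4.6, pandas 2.3.3, R 4.3.3 and limma 3.58.1. Known folds were recovered on simulated data made from the control array. The folds were put only into bright probes, so that check does not cover dim genes.

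The genes and lists were chosen with earlier results of these data known. Named with values are all TIMPs, measured MMPs and ADAMTS proteases, genes at least 1.5-fold different, the 3 ADAMs of highest signal, bounds of at least 1.5-fold and the 2 highest and 2 lowest genes of each list, with other ADAMs inside a range. Other genes with values (Adamts19, Mmp9, Mmp1a and further bounds among them) were chosen after their values were seen. 1 gene whose symbol matches the rule was left out of the 82 and is not reported here.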

Additional observations from a re-analysis of the deposited data

How the results depend on the processing

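The counts of 2 lower and 0 higher genes at 2-fold changed with the background correction, the filter and the threshold. Normexp left 1 lower (Timp1). Without the filter on dim probes there were 4 higher and 7 lower among all 82. At 1.5-fold there were 3 higher and 10 lower, and at 3-fold 1 lower. The shares of all genes under normexp at 2-fold, without the filter and at 3-fold are not given here. The 1.25% and 1.15% hold for measured genes in the main setting only. Those counts therefore stand without a background, and the unfiltered ones include ratios of signals near background. The 2 bounds of at least 2-fold (Adamts4 and Mmp1b) both dropped below it under normexp, leaving 0, a setting chosen after seeing the data. The median log2 ratio of the measured genes lay between -0.29 and -0.12 over all settings, and that of all genes between -0.03 and 0.05. The 13 genes at least 1.5-fold different kept their sign in the 8 alternatives with the background filter, wherever they were measured, and 7 of them stayed past 1.5-fold (Timp1, Adam8, Adam19, Adamts2, Mmp2, Adamtsl4 and Timp4). Of the 40 measured genes 2 turned sign, Adam11 and Adam22. Of 352 alternative values, 8 moved by more than their scanner error, 7 of them under normexp, where Timp1 stood at -1.29. Normexp adds an offset of 50 to every signal, and other causes were not tested. Many of the 352 could hardly move. The 2 filters leave each ratio as it was, and 2 of the scalings shift all genes alike, by -0.04 and -0.06. The mean over probes leaves genes with 1 measured probe unchanged, and the deposited values nearly repeat quantile normalization. The count of 8 and the signs kept over the settings are therefore weak evidence of stability. No paired analysis was possible because each group has 1 array. Signals near background limit the 37 genes above it on neither array.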
